A study of Mus musculus with 8 samples.

Results

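The same stretch of mouse DNA, the gene desert between Kcnj2 and Sox9, was turned round in 2 mutants that differ in where the domain boundary ended up. In InvIntra the boundary stayed in its place next to the Kcnj2 side, outside the inverted sequence. In InvC it was carried along to the other end, next to the Sox9 side. These 2 libraries were chosen by genotype from the 8 analysed here, and contacts between matched pieces of sequence were compared across chromosome 11, 110920001 to 113030000 (mm9). The assay was capture Hi-C, which enriches ligated fragments of a chosen region and counts each read pair as a contact between the places its ends map to. The tissue was fore- and hindlimb buds of mouse embryos at E12.5. Both lines were homozygous mutants with the background given as G4 ESC, and limb buds of 3 to 8 embryos were used for each condition. InvC∆Bor, a homozygous mutant of the same stage, tissue and background whose label joins the InvC inversion to ∆Bor, is given beside them as a value only. The series describes 9 mutants and a wildtype, and the wildtype map was not analysed here. InvIntra, InvC and InvC∆Bor all carry the desert in inverted order, so none of them shows the unrearranged locus. The mutants ∆BorC1, ∆BorC1-2, ∆BorC1-4 and ∆CTCF keep the desert in native order and serve below for bin coverage and depth only.

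Topologically associating domains are stretches of chromatin whose parts meet each other more often than they meet neighbouring stretches. Their boundaries usually hold binding sites for CTCF, a zinc finger protein at which loop extrusion by cohesin halts, and the orientation of a site matters for which partner it pairs with. Sox9 encodes a transcription factor that cartilage formation requires, and its distant enhancers lie in the desert. Kcnj2 encodes an inward rectifier potassium channel and lies in the neighbouring domain. In the RefSeq gene order (GRCm38) Kcnj16, another inward rectifier channel gene, precedes Kcnj2, and Slc39a11, a zinc transporter gene, follows Sox9.

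InvIntra held 6234950 raw contacts, InvC held 4938928 and InvC∆Bor held 3056502, within a range of 3056502 to 9045698 over the 8 libraries. With a single library of each mutant there was no replicate and no test was run. Intervals are 95% and cover counting error only, with read pairs taken as independent molecules. They are narrow because the counts are large, and they say nothing of the spread between embryos or preparations. The ratio of InvIntra to InvC in the unedited flanks, at least 300 kb outside the interval from Kcnj2 to the far edge of the Sox9 side, shows how far these libraries differ where neither was edited.

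The coverage of the bins was read first, since it shows which sequence lies where. The Kcnj2 side of InvIntra correlated best with that of InvC without a shift (r = 0.996 over 43 bins), and the Sox9 side did so too (r = 0.987 over 46 bins). Inside the desert the unshifted profiles did not resemble each other (r = 0.0349 over 95 bins), whereas InvIntra moved by the best shift reached r = 0.897, with shifts of 18.0 to 19.0 kb in its 3 parts. The desert in InvIntra thus starts that much farther from Kcnj2. These bins share capture probes and base composition, so the correlations describe the match only. The reference for native order was the median coverage of ∆BorC1, ∆BorC1-2, ∆BorC1-4 and ∆CTCF, which are themselves mutants. Against it InvIntra reached r = 0.881 and InvC r = 0.896 in mirrored order. In the order as mapped r was 0.0501 in InvIntra and -0.0611 in InvC. The bin at 111390001 to 111400000, taken as the boundary of InvIntra, held 28151 contacts there. The bin at 112500001 to 112510000, which the mirror assigns to the boundary in InvC, held 20049 contacts in InvC, against 131 in InvC∆Bor, in which this bin was nearly empty.

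Matched sequence was divided into a Kcnj2 side of 460 kb (110920001 to 111380000), an inverted desert of 1080 kb (111420001 to 112500000 in InvIntra, 111400001 to 112480000 in InvC) and a Sox9 side of 510 kb (112520001 to 113030000). Because the desert is inverted, its end next to the Kcnj2 side is the end that natively faces Sox9. Sox9 was placed in the bin at 112640001 and Kcnj2 in the bin at 110920001 from what is generally known of mm9, since the files name no genes. The blocks are set by the coordinates given and do not depend on these placements.

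Insulation marked the boundary at a different end of the desert in each mutant. The insulation score of a bin is the log2 of the mean balanced contact between the 200 kb on its left and the 200 kb on its right, over the mean of that library, so a low score means few contacts across the bin. At the bin from 111390001 the score was -1.78 in InvIntra and -0.20 in InvC, a difference of -1.58. InvC∆Bor had -0.23 there. The deepest trough of InvIntra in this area was -1.79, in the bin before it, while InvC had no trough at the site. At the bin from 112500001 the order was turned round, with -0.12 in InvIntra and -1.22 in InvC, a difference of 1.09. Across 276 flank positions the same difference ran from -0.08 to 0.11, so both changes lay far outside the flanks. The trough of InvIntra at its boundary was deeper than that of InvC at its own.

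Not every low score moved with the boundary. The bin from 113030001, at the edge of the Sox9 side, stood at -1.36 in InvIntra and -1.25 in InvC, with -1.30 in InvC∆Bor. At the Sox9 bin the score was -0.81 in InvIntra and -0.41 in InvC, and -0.89 in InvC∆Bor, so the dip at the gene was shallowest in InvC, whose boundary lies 140 kb from it and inside the 200 kb window. At the Kcnj2 bin the score was -0.41 in InvIntra and -0.67 in InvC, with -0.60 in InvC∆Bor.

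**Figure D1:**
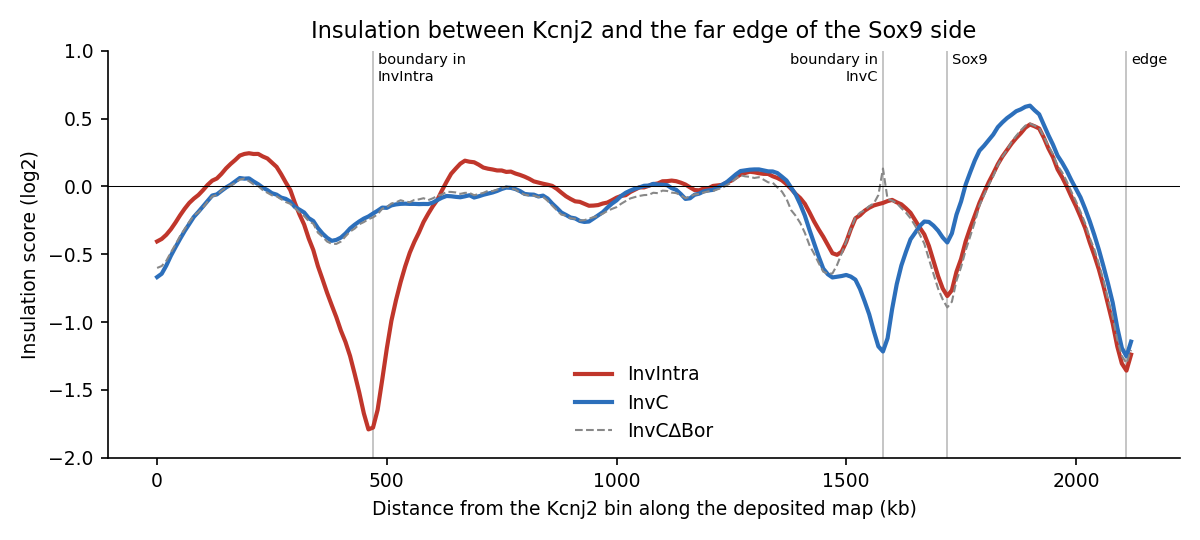
Insulation score (log2) in each 10 kb bin against the distance in kb from the Kcnj2 bin along the deposited map, for InvIntra (red), InvC (blue) and InvC∆Bor (grey, dashed), with grey lines at the boundary of each mutant, Sox9 and the edge. InvIntra falls to -1.79 beside its boundary where InvC stays at -0.20, and InvC falls to -1.22 at its own boundary where InvIntra stays at -0.12; the small grey spike there is a nearly empty bin.

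Turning to the blocks, the desert met the Kcnj2 side less and the Sox9 side more in InvIntra than in InvC. Contact is given as observed over expected, the raw contacts divided by those the same library has on average at the same distances over the whole map, for pairs at least 20 kb apart. Between the Kcnj2 side and the desert it was 0.661 in InvIntra (104902 contacts, interval 0.657 to 0.665) and 1.37 in InvC (168696 contacts, 1.36 to 1.37). Their ratio was 0.483 (0.479 to 0.486). In InvIntra the boundary lies between these blocks, and in InvC it does not. Between the desert and the Sox9 side it was 1.53 in InvIntra (270968 contacts) and 0.849 in InvC (107108 contacts, 0.844 to 0.854), a ratio of 1.80 (1.79 to 1.81). Here the boundary lies between the blocks in InvC. In 64 pairs of 200 kb flank pieces the ratio ran from 0.887 to 1.21, with a median of 1.02, and both changes lay outside that range.

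As shares of all contacts within the 3 blocks, the Kcnj2 side with the desert made up 7.17% in InvIntra and 15.1% in InvC. The desert with the Sox9 side made up 270968 of 1462891 contacts in InvIntra and 107108 of 1118242 (9.58%) in InvC. InvC∆Bor combined the higher value of each. Its observed over expected contact was 1.34 between the Kcnj2 side and the desert, where InvC had 1.37 and InvIntra 0.661. It was 1.40 between the desert and the Sox9 side, where InvIntra had 1.53 and InvC 0.849. In each mutant, then, the desert met the side across the boundary less than in the other mutant and in InvC∆Bor. On the side without the boundary, InvIntra stood at 1.09 times InvC∆Bor and InvC at 1.02 times.

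**Figure D2:**
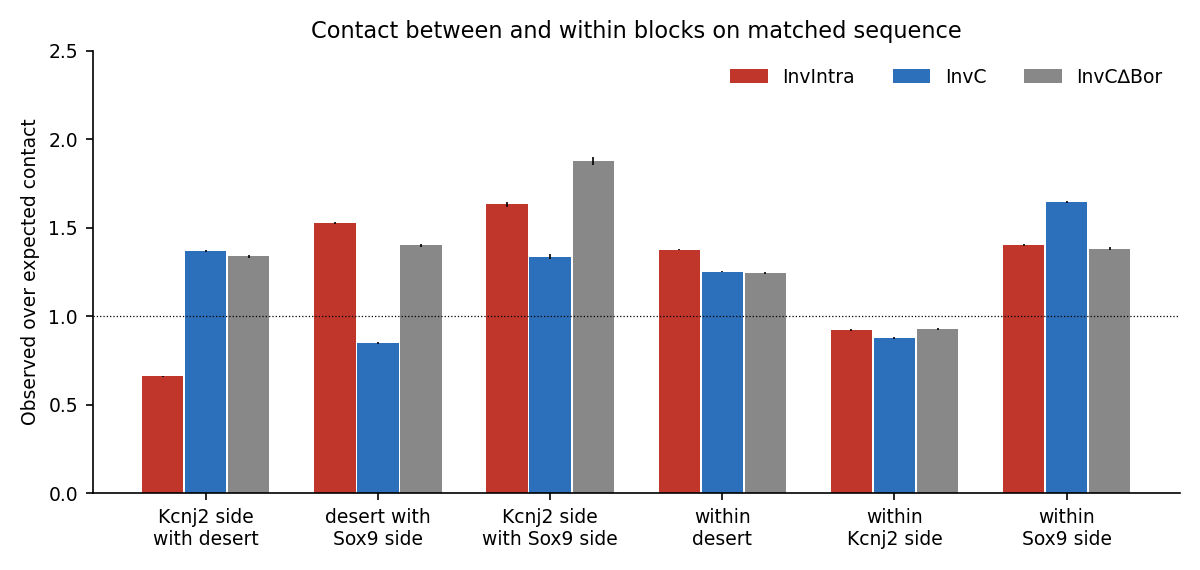
Observed over expected contact between and within the 3 blocks (vertical axis, no unit) in InvIntra (red), InvC (blue) and InvC∆Bor (grey); bars are values of 1 library each and error bars are 95% Poisson intervals of the counts. The Kcnj2 side with the desert stands at 0.661 in InvIntra and 1.37 in InvC, and the desert with the Sox9 side at 1.53 in InvIntra and 0.849 in InvC.

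The other blocks changed less. Between the Kcnj2 side and the Sox9 side, which have a boundary somewhere between them in both mutants, contact was 1.63 in InvIntra (43304 contacts) and 1.34 in InvC (27983 contacts), a ratio of 1.22 (1.20 to 1.24). This fell to 1.01 when the expected contact was taken from the flanks alone, which hold few pairs at such distances, so no difference is called. InvC∆Bor was higher than both, at 1.88. Within the Sox9 side contact was 1.40 in InvIntra and 1.64 in InvC (ratio 0.852), below the flank range, and 1.38 in InvC∆Bor. Within the desert it was 1.38 in InvIntra and 1.25 in InvC, and within the Kcnj2 side 0.923 in InvIntra and 0.876 in InvC. Those ratios, 1.10 and 1.05, lay inside the range of both flanks together, though the right flank alone reached only 1.05. Desert contacts sorted by distance gave ratios of 1.07 at 20 to 100 kb and 1.10 at 800 to 1080 kb, with no more than 1.12 between. At those nearest and farthest distances the left flank gave 1.02 and 1.13, and the right flank 0.969 and 0.971. The desert ratio lay above both flanks in every distance class except the farthest.

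The change in contact with the Kcnj2 side was graded along the desert. The desert was cut into 11 pieces of 100 kb, the last of 80 kb, counted from its end next to the Kcnj2 side. The first piece had a contact of 0.344 with the Kcnj2 side in InvIntra (10841 contacts) and 0.968 in InvC (25613 contacts), a ratio of 0.355 (0.348 to 0.364). In the last piece the contact was 1.67 in InvIntra and 2.64 in InvC, a ratio of 0.634. The ratio was thus lowest next to the boundary of InvIntra, and the highest, 0.643, was in the ninth piece. InvIntra lay below InvC in every piece.

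Contact with the Sox9 side ran the other way along the sequence. The first piece, which natively lies next to Sox9 and here lies farthest from it, had 3.00 in InvIntra (22842 contacts) and 1.43 in InvC (8167 contacts), a ratio of 2.10. The last piece, next to the boundary of InvC, had 1.24 in InvIntra and 0.707 in InvC, a ratio of 1.76. All 11 ratios lay between 1.69 and 2.10. The ratio thus varied less along the desert for the Sox9 side than for the Kcnj2 side. In its first 9 pieces InvIntra also exceeded InvC∆Bor, with 3.00 against 2.02 in the first, and neither of them has the boundary between the desert and the Sox9 side.

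**Figure D3:**
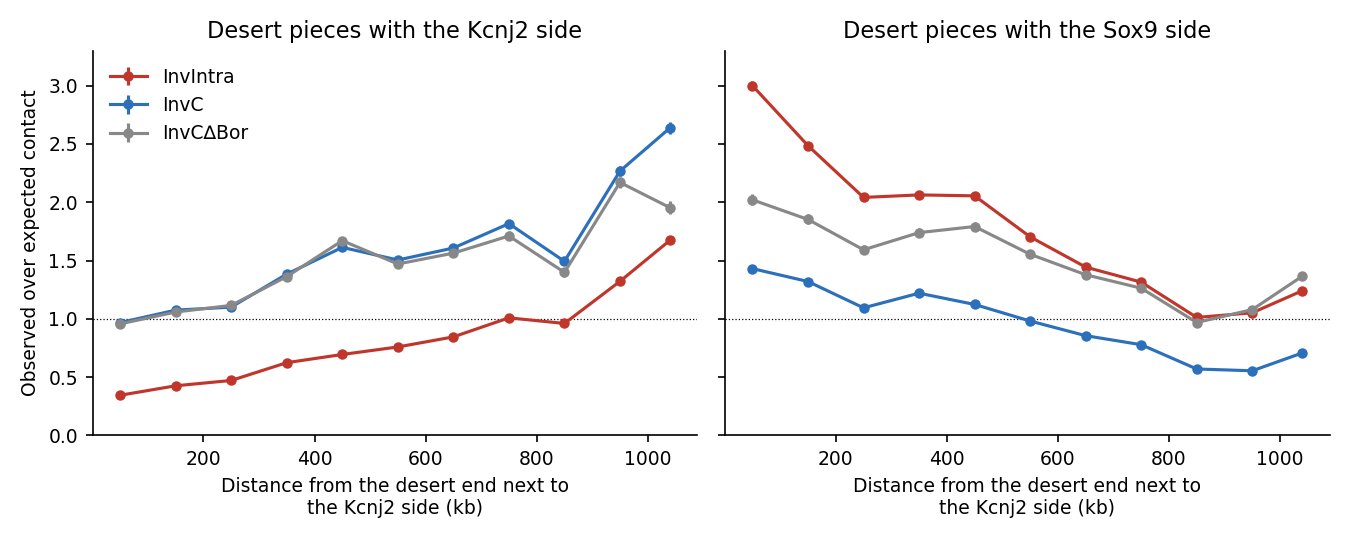
Observed over expected contact of the 11 desert pieces with the Kcnj2 side (left) and the Sox9 side (right) against the distance in kb of each piece's middle from the desert end next to the Kcnj2 side, in InvIntra (red), InvC (blue) and InvC∆Bor (grey); error bars are 95% Poisson intervals. InvIntra lies below InvC throughout on the left, from 0.344 against 0.968 in the first piece, and above it throughout on the right, from 3.00 against 1.43.

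Single bins showed the same direction without exception. Of 108 desert bins of 10 kb, 108 had less contact with the Kcnj2 side in InvIntra than in InvC, with ratios of 0.273 to 0.869 and a median of 0.491. In the flanks 51.4% of 432 comparisons of a bin with a block of the same length were lower in InvIntra, with ratios of 0.815 to 2.97. All 108 bins had more contact with the Sox9 side, with ratios of 1.34 to 2.84 and a median of 1.81. Of 412 such flank comparisons 48.1% were higher, with ratios of 0.819 to 2.96 and a median of 0.996. A flank bin could enter with a block on its left and another on its right. Those blocks lay closer to the bin than the side blocks lie to most desert bins. The highest flank ratio thus exceeded the highest desert ratio, so single bins with the Sox9 side do not stand apart by size alone. Bins of one library are not replicates, and neighbouring bins share contacts.

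The side a desert bin preferred relative to distance was expressed as a log2 ratio. This is its observed over expected contact with the Kcnj2 side over that with the Sox9 side. Its median was -1.28 in InvIntra and 0.60 in InvC, with -0.05 in InvC∆Bor. Values above 0, a preference for the Kcnj2 side relative to distance, were found in 22 of 108 bins (20.4%) in InvIntra and 83 (76.9%) in InvC, and in 51 (47.2%) in InvC∆Bor. Raw counts can point the other way. The last desert bin of InvIntra had 1230 contacts with the Kcnj2 side and 7419 with the Sox9 side, at a log2 of 0.18. Within InvIntra the preference changed along the desert from a mean of -3.12 over the first 100 kb to 0.46 over the last, and within InvC from -0.55 to 2.05. InvC∆Bor ran from -1.07 to 0.66. Relative to distance, the part of the desert closest to the Kcnj2 side thus had the strongest preference for the Sox9 side, in both mutants and in InvC∆Bor. In raw counts the first desert bin of InvC met the Kcnj2 side more, with 2822 contacts against 751. Observed over expected contact also rose with distance within the desert, in InvIntra from 1.19 at 20 to 100 kb to 2.54 at 800 to 1080 kb. Single bins scattered around 0, so the crossing was read from a running median over 5 bins. It first exceeded 0 at 860 kb from the Kcnj2 end in InvIntra and at 230 kb in InvC, with 580 kb in InvC∆Bor. The running median changed sign 3 times in InvC, so 230 kb is only its first crossing, and 1 time each in InvIntra and InvC∆Bor.

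Pairs of 50 kb pieces at least 100 kb apart placed the change on the map. Of 742 matched pairs, 108 (14.6%) were at least 2-fold lower in InvIntra than in InvC and 45 (6.06%) at least 2-fold higher, which is 20.6% in all. None of 878 flank pairs (0%) passed this fold, their ratios running from 0.721 to 1.60. Of the lower pairs, 107 joined the Kcnj2 side to the desert, out of 188 such pairs (56.9%), whose median ratio was 0.470. Of the higher pairs, 44 joined the desert to the Sox9 side, out of 210 (21.0%), with a median of 1.77. The desert with either side thus held 151 of the 153 pairs. None of the 190 pairs within the desert or the 28 within the Kcnj2 side passed.

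The 2 remaining pairs were singled out after their values were seen. The last piece of the Kcnj2 side (from 111320001) met a piece of the Sox9 side (from 112720001) with 607 contacts in InvIntra and 230 in InvC, or 1.83 against 0.888 (ratio 2.06, interval 1.77 to 2.40). The boundary of InvIntra lies just beyond that Kcnj2 piece. The first piece of the Sox9 side (from 112520001) met a distant piece of the same side (from 112970001) with 1625 contacts in InvIntra and 2541 in InvC, or 1.40 against 2.93 (ratio 0.477). That first piece lies directly beside the boundary of InvC. More generally, the 60 kb of the Kcnj2 side nearest the InvIntra boundary had a ratio of 1.74 with the Sox9 side, against 1.09 to 1.28 for its other pieces. These ratios between the Kcnj2 side and the Sox9 side rest on the whole-map expectation. Taking the expected contact from the flanks lowered the ratio of the whole block from 1.22 to 1.01. The sizes of the ratios of its pieces and of the pair at 2.06 are therefore not settled.

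**Figure D4:**
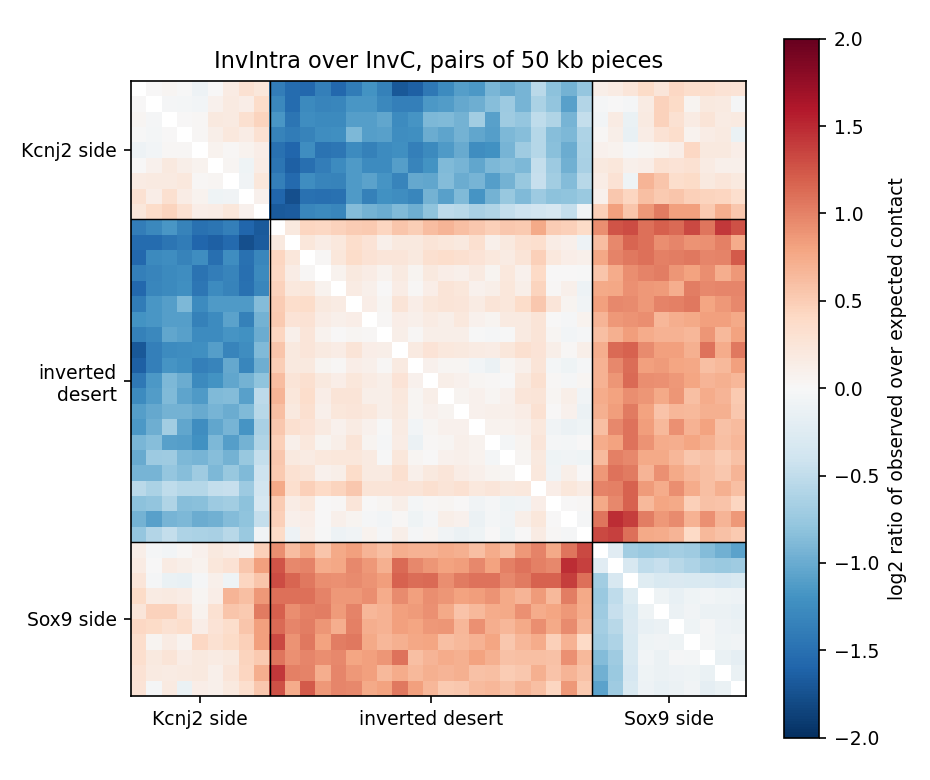
Log2 ratio of observed over expected contact, InvIntra over InvC, for each pair of 50 kb pieces of matched sequence, ordered from the Kcnj2 side (top and left) to the Sox9 side (bottom and right), with black lines between blocks; red is higher in InvIntra and blue higher in InvC. The Kcnj2 side with the desert is blue throughout, down to -1.75, and the desert with the Sox9 side red throughout, up to 1.48.

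The lowest 10 pairs all joined the Kcnj2 side to the desert. The lowest joined the piece from 111270001 to the desert piece from 111470001 in InvIntra (111450001 in InvC), with 601 contacts in InvIntra and 1698 in InvC, or 0.291 against 0.981, a ratio of 0.296. The piece that holds the Kcnj2 bin was in 4 of the 10, among them with the desert piece from 111820001 in InvIntra (111800001 in InvC), at 0.763 in InvIntra and 2.48 in InvC. The highest 10 pairs all joined the desert to the Sox9 side. The highest joined the desert piece from 112370001 in InvIntra (112350001 in InvC) to the piece from 112570001, with 3058 contacts in InvIntra and 781 in InvC, or 1.48 against 0.531, a ratio of 2.79. The same desert piece with the piece that holds the Sox9 bin had 1.81 in InvIntra and 0.690 in InvC. The first desert piece, at the far end, was in 5 of the 10.

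The contacts of each gene were then read from a window of 30 kb. The Sox9 window placed 37.4% of its contacts on the desert in InvIntra (23018 of 61563, exact Clopper-Pearson interval 37.0 to 37.8) and 17.0% in InvC (7804 of 45931, 16.6 to 17.3), a ratio of 2.20. It placed 32.8% there in InvC∆Bor. Its contacts with the Sox9 side were 36.8% in InvIntra and 50.9% in InvC. The share that reached the Kcnj2 side was 4.18% in InvIntra and 4.02% in InvC (ratio 1.04, interval 0.979 to 1.10), which is not separable at this depth. Along the desert the ratio of the Sox9 window ran from 1.73 in the last piece to 2.48 in the tenth.

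The Kcnj2 window placed 7474 of its 59735 contacts on the desert in InvIntra (12.2 to 12.8%) and 26.4% in InvC (13124 of 49701, 26.0 to 26.8), a ratio of 0.474. InvC∆Bor had 25.1%. The rest of its contacts are shares of the same whole. The share on the Kcnj2 side was 26.1% in InvIntra and 22.1% in InvC, and the share left of Kcnj2 was 49.9% in InvIntra and 42.5% in InvC. Its desert ratio was lowest in the fifth piece, at 0.329 (687 contacts in InvIntra, 1504 in InvC), and highest in the ninth, at 0.628. The 30 kb windows are noisier than blocks: in 1143 flank pairs of such a window and a 100 kb piece the ratio ran from 0.642 to 1.64, with the central 95% between 0.855 and 1.26.

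The boundary sequence itself could be followed, since it is present in both mutants at opposite ends of the desert. A window of 30 kb is wider than the stretch missing from InvC∆Bor. There the bins from 112490001 and 112510001, beside the nearly empty one, still held 9620 and 6546 contacts. The window thus takes in adjoining sequence, which need not be the same in InvIntra and InvC. A 30 kb window on it placed 49.3% of its contacts on the desert in InvIntra and 33.8% in InvC, and 13.9% on the Sox9 side in InvIntra and 32.2% in InvC. These shares reflect distance as well as contact per distance. Per distance, the boundary of InvIntra had little contact with the adjacent Kcnj2 side, with 0.422 in InvIntra and 2.39 in InvC for the nearest 60 kb, and the ratio was between 0.177 and 0.295 for all 5 pieces. Its ratio along the desert climbed from 0.279 in the first piece to 5.77 in the tenth, where contact was 5.88 in InvIntra and 1.02 in InvC.

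Peaks of single bins stood out in the boundary profile of InvIntra. The desert bin from 112400001 in InvIntra, matched to 112380001 in InvC and natively at about 111.51 Mb, had 1004 contacts with the boundary in InvIntra and 387 in InvC. That is 15.3 (14.3 to 16.2) in InvIntra, over 1010 kb, and 1.39 (1.25 to 1.54) in InvC, over 120 kb, a ratio of 11.0 (9.77 to 12.3). In InvC the peak was in the next bin, with 461 contacts at 1.56. The bin from 112630001, beside the Sox9 bin, had 13.0 in InvIntra (620 contacts) and 3.73 in InvC (982 contacts). A peak at the desert bin from 111880001 in InvIntra (111860001 in InvC), near the middle of the desert, had the same height in both, with 4.01 in InvIntra and 3.98 in InvC (ratio 1.01, interval 0.872 to 1.16). So the peaks toward Sox9 were far higher over expected in InvIntra, and the central peak was equal.

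**Figure D5:**
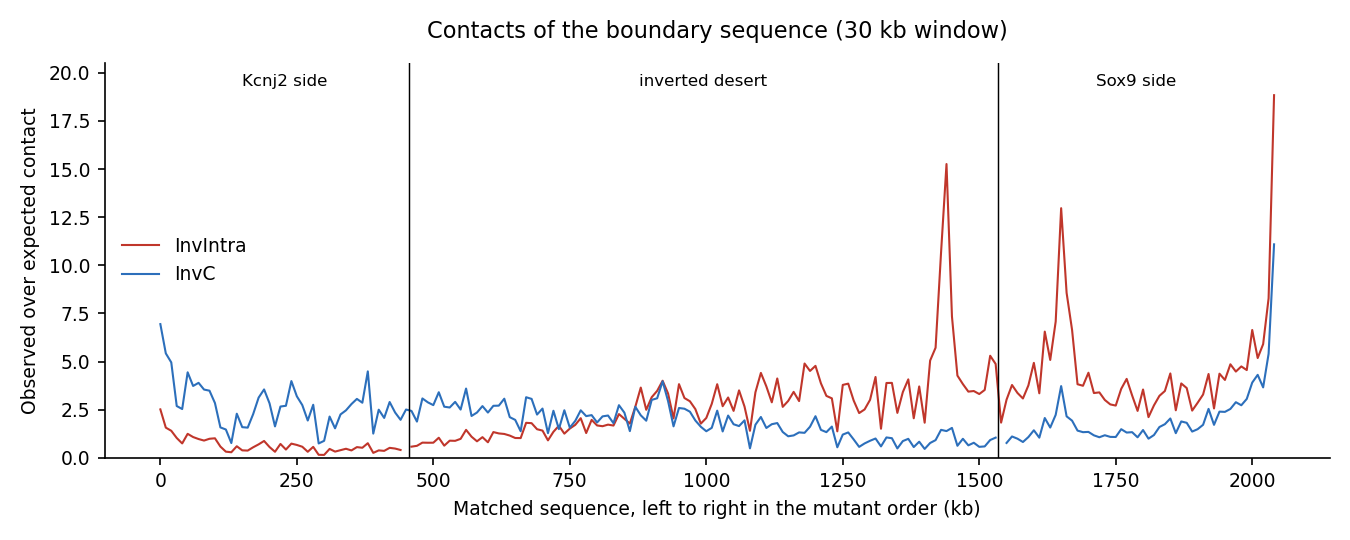
Observed over expected contact of the 30 kb boundary window with each matched 10 kb bin, in order along the mutant chromosome (kb of matched sequence), in InvIntra (red) and InvC (blue), with black lines between blocks. InvIntra lies below InvC on the Kcnj2 side and above it toward Sox9, with peaks of 15.3 in the desert and 13.0 beside Sox9 where InvC has 1.39 and 3.73. The last bin, at the edge of the Sox9 side, stands higher than these, at 18.8 in InvIntra and 11.1 in InvC.

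These 2 desert bins and another peak of the boundary profile, in InvC, were followed from the genes. The bin natively at about 111.51 Mb met Sox9 with 646 contacts in InvIntra and 134 in InvC, or 2.99 against 0.867 (ratio 3.45), and 231 contacts at 2.61 in InvC∆Bor. It met Kcnj2 with 134 contacts in InvIntra and 218 in InvC, or 3.54 against 6.98 (ratio 0.507). The bin natively at about 111.75 Mb met Sox9 with 326 contacts in InvIntra and 98 in InvC (ratio 2.39), and Kcnj2 with 97 in InvIntra and 148 in InvC (ratio 0.497). The central bin, natively at about 112.03 Mb, met Kcnj2 with 87 contacts in InvIntra and 223 in InvC, or 1.30 against 4.65 (ratio 0.280). It met Sox9 with 297 contacts in InvIntra and 90 in InvC, or 3.58 against 1.55. At each of these bins, contact with Sox9 was higher and contact with Kcnj2 lower in InvIntra. That direction is not particular to them. All 108 desert bins had it with the Sox9 side and the Kcnj2 side, and every desert piece had it with both gene windows. A bin inside the Kcnj2 side, from 111300001, met Kcnj2 with 3.99 in InvIntra and 2.91 in InvC (ratio 1.37).

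Contacts between the named places depended on which pair was taken. The boundary met the edge of the Sox9 side with 1237 contacts over 1630 kb in InvIntra and 1998 over 520 kb in InvC, or 11.6 (10.9 to 12.2) against 7.24 (6.92 to 7.56). Per distance, it met the Sox9 window at 9.44 in InvIntra and 2.64 in InvC. It met the Kcnj2 window at 1.89 in InvIntra and 5.71 in InvC. The boundary lies nearer to Sox9 in InvC and nearer to Kcnj2 in InvIntra, and raw counts ran the other way. With the Sox9 window there were 1325 contacts in InvIntra and 1972 in InvC. With the Kcnj2 window there were 763 in InvIntra and 475 in InvC. Of these 3 places, the boundary had its strongest contact per distance with the edge in both mutants. Sox9 met the edge, at the same distance in both, with 3.17 in InvIntra and 4.05 in InvC (ratio 0.784), and 3.22 in InvC∆Bor. Kcnj2 met Sox9 with 242 contacts in InvIntra and 168 in InvC, or 2.65 against 2.28 (ratio 1.17, interval 0.958 to 1.42), and the counting interval does not separate them. InvC∆Bor had 5.02 for Kcnj2 with Sox9.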

How the data were processed

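Capture Hi-C maps of 10 kb bins over chromosome 11, 109010001 to 114880000 (587 bins), were used for InvIntra, InvC and InvC∆Bor. From ∆BorC1, ∆BorC1-2, ∆BorC1-4 and ∆CTCF only the bin coverage and the depth were used. Raw values are counts of read pairs, as deposited by the authors. The deposited KR (Knight-Ruiz) values are a balanced signal that the authors derived from the counts; their totals differ between libraries. Reads were processed with Bowtie2 2.2.6 and Juicer on mm9, per the submitters' processing notes. No source used here gives the read filters or whether a mutant genome was mapped to. The members, places and lists were chosen with earlier results of these data known.

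Desert bins were matched with a shift of 20 kb, the whole number of bins nearest to the best shift, and bins between blocks were left out. Expected contact was each library's mean at each distance over the whole map, edited blocks included. Blocks and windows used raw counts at least 20 kb apart, and insulation used KR values. Counts have exact Poisson intervals, shares exact Clopper-Pearson intervals and ratios log-normal ones. For 50 kb pairs, at least 100 contacts in either library were required, and all 742 had them; the 10 highest and 10 lowest were named. A peak is the highest bin within 30 kb, with at least 50 contacts and 1.5 times the median within 80 kb. The first and last bins of a block could not be peaks. Software was scipy 1.17.1, pandas 2.3.3, numpy 2.4.6 and Python 3.11.15, with plots by matplotlib 3.10.9. On simulated maps, recovery of known block ratios was required only with flank expectation, and not for the Kcnj2 side with the Sox9 side. The whole-map expectation of the main values had no such requirement.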

Additional observations from a re-analysis of the deposited data

How the results depend on the processing

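Of 72 alternative values for 11 results, 40 stayed within the main interval (for the count of pairs, within 1.5 times it; for insulation, within the widest flank difference), 32 moved beyond it and 0 changed direction. For the Kcnj2 side with the desert (0.483), KR values gave 0.489, matching by 10 kb 0.473 and keeping all edge bins 0.500. For the desert with the Sox9 side (1.80), KR values gave 1.77, flank expectation 1.76, depth-scaled contacts 1.98 and keeping edge bins 1.77. For the Kcnj2 side with the Sox9 side (1.22), flank expectation gave 1.01 and keeping edge bins 1.24. Within the desert (1.10), KR values gave 1.06, flank expectation 1.11, depth-scaled contacts 1.08, pairs at least 100 kb apart 1.11 and matching by 10 kb 1.10. Within the Kcnj2 side (1.05), KR values gave 1.09, depth-scaled contacts 1.01 and pairs at least 100 kb apart 1.10. Within the Sox9 side (0.852), KR values gave 0.847, flank expectation 0.859, depth-scaled contacts 0.820, pairs at least 100 kb apart 0.801 and keeping edge bins 0.836. The insulation difference at the boundary of InvIntra (-1.58) was -1.82 with 100 kb, -1.36 with 400 kb, -1.43 with raw counts and -1.42 with InvIntra thinned as well. At that of InvC (1.09) it was 1.39 with 100 kb and 0.88 with 400 kb. For the Sox9 window (2.20), observed over expected gave 2.10, and for the Kcnj2 window (0.474) it gave 0.430, with 0.456 from KR values. At 1.5-fold 392 pairs passed in place of 153, and the other settings gave 142 to 181. The causes were not tested. No paired analysis was possible because each genotype had 1 library. Depth limits pairs of single windows at megabase distances, such as Kcnj2 with Sox9 (242 contacts in InvIntra, 168 in InvC). Genotype and library preparation cannot be told apart.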

Other observations

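The 800 kb on either side of the interval, which the mutants leave in native order, also met the desert differently. The 800 kb left of Kcnj2 (110120001 to 110920000) met the desert at 1.22 in InvIntra (153364 contacts) and 2.08 in InvC (201208 contacts), a ratio of 0.588, with 1.88 in InvC∆Bor. It met the Kcnj2 side at 1.35 in InvIntra and 1.11 in InvC, and the Sox9 side at 2.20 in InvIntra and 2.13 in InvC. The lower contact of the desert in InvIntra therefore reached beyond Kcnj2. For the Sox9 side the ratio was 1.04 with the whole-map expectation. It was not run with expected contact from the flanks, so no direction is called. Per distance, the boundary sequence met this left stretch at 1.83 in InvIntra and 4.19 in InvC (ratio 0.437). The raw counts ran the other way, with 11294 contacts in InvIntra, where it lies nearer, and 6944 in InvC.

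The 800 kb beyond the edge (113030001 to 113830000) met the desert at 0.878 in InvIntra and 0.579 in InvC, a ratio of 1.52, with 0.693 in InvC∆Bor. It met the Kcnj2 side at 0.895 in InvIntra and 0.714 in InvC, and the Sox9 side at 0.590 in InvIntra and 0.700 in InvC. The order of the libraries beyond the edge was thus the same as within the Sox9 side for the desert and for the Sox9 side itself, and contact with all 3 blocks stayed below the average for the distance. The boundary sequence met this right stretch above that average, at 1.57 in InvIntra and 1.05 in InvC (ratio 1.49). The raw counts ran the other way, with 3114 contacts in InvIntra and 4389 in InvC, where it lies nearer. These stretches overlap in part with those used as unedited flanks.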
